A study of Homo sapiens with 9 samples.

Results

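Semaphorins, plexins, neuropilins and the plexin domain containing genes are treated here as a list of 33 genes, 20 ligands and 13 receptors. PLXDC1 and PLXDC2, named for a plexin-like domain, are counted among the receptors. The genes were taken by symbol from the 27111 genes of the deposited gene tables: the semaphorins of classes 3 to 7, the 9 plexins, NRP1, NRP2 and the plexin domain containing genes PLXDC1 and PLXDC2. The rule that lists them uses no measured value, but the list was chosen with earlier results of these data known. Its counts beside all genes are therefore a description. The RNA came from PC3 cells, an established line from a bone metastasis of prostate cancer, grown as multicellular tumor spheroids (MTSs). All cells had been transduced with a lentivirus and selected with puromycin, and carried the empty vector (Empty), the long isoform of mouse NF-YA (NF-YAl) or its short isoform (NF-YAs). NF-YA is the regulatory, sequence-specific subunit of the trimer NF-Y, which binds CCAAT boxes in promoters. Each library pooled several MTSs, and each line had 3 libraries, named A, B and C for Empty and NF-YAs, and A, B and D for NF-YAl. All libraries came from 1 cell line, so the replicate error is that between cultures of the same transduced cells.

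Semaphorins are extracellular signals that steer axons, vessels and migrating cells. Class 3 proteins are secreted, those of classes 4 to 6 span the membrane, and SEMA7A is held by a GPI anchor. Plexins are their signalling receptors: the intracellular part acts on small GTPases of the R-Ras and Rap families and so on the cytoskeleton and integrin adhesion. Most class 3 semaphorins need a neuropilin, NRP1 or NRP2, as the binding subunit beside a type A plexin, whereas SEMA3E binds PLXND1 directly. Neuropilins also bind VEGF proteins together with the VEGF receptors KDR and FLT1. Several class 3 members, SEMA3B and SEMA3F among them, are known as inhibitors of tumor growth or vessel formation, while SEMA4D with PLXNB1 and SEMA3C are known to favour motility of carcinoma cells.

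The 9 libraries held 18076979 to 27163976 expected counts, which are reads assigned to a gene by estimation, with 20072 to 20717 genes above 0. NFYA, the gene introduced, was listed at 19.9, 16.5 and 15.0 TPM (transcript abundance corrected for length and depth) in Empty, at 59.3, 67.5 and 116 in NF-YAl and at 60.8, 54.2 and 49.3 in NF-YAs, with no overlap between either NF-YA line and Empty. The RNA of the mouse insert was counted here against human transcripts. The epithelial keratins KRT8 and KRT18 were high in all libraries (70.4 to 423 TPM) and KLK3 was at 0. The leukocyte markers PTPRC, CD3E and CD14 stayed at or under 0.93 TPM. Of the endothelial markers, CDH5 and TEK were at or under 0.16 TPM, VWF reached 1.06 TPM and PECAM1 2.74 TPM. Library D of NF-YAl stood apart on the TPM scale: its median gene lay 0.65 log2 units above the Empty mean, against −0.13 to 0.23 in the other libraries. Changes between lines are therefore given in CPM (counts relative to library size) with TMM scaling, on which the same median lay between −0.017 and 0.012 in all 9 libraries, and TPM, which corrects for length, is used for levels between genes. D was also the lowest NF-YAl library for 21 of the 31 members tested, and for 7 of the 8 plexins. The share of all tested genes for which D was lowest was not taken. Values without D are given beside the member calls that turn on it.

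NRP1 dominated the system. It was listed at 454, 413 and 394 TPM in Empty, and made up 77.5% to 83.8% of the summed TPM of the 13 receptors in every library. The next receptor in Empty, PLXNB2, reached 39.9 ± 5.31 TPM (SD, n = 3). PLXNA1, PLXNB3 and PLXNA3 followed at 20.5, 18.2 and 18.03 TPM, and PLXNB1 at 6.03 TPM. PLXNA1 was above PLXNB3 and PLXNA3 in each Empty library, while the order of PLXNB3 and PLXNA3 changed between libraries. NRP2, the other neuropilin, was at 0.91, 0.78 and 0.54 TPM in Empty. The cells thus entered the comparison with abundant NRP1, B and A plexins, and little NRP2, PLXNC1, PLXND1 or PLXNA2. Among ligands, SEMA4B led in Empty with 41.6 ± 6.14 TPM, followed by SEMA7A with 30.2 ± 3.21 and SEMA3F with 14.8 ± 3.23. SEMA5B and PLXNA4 were at or under 0.07 TPM in all libraries and did not pass the filter on low counts. In all, 26 members, 16 ligands and 10 receptors, had a mean of at least 1 TPM in at least 1 line.

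A member was called changed when edgeR's quasi-likelihood test gave a Benjamini-Hochberg adjusted p under 0.01 over all 17108 genes tested and the log2 fold change exceeded 1 in size. By this rule 13 members changed in at least 1 comparison and 18 in none. In NF-YAl MTSs, 6 of 31 tested members were higher than in Empty (background: 4.76% of all genes tested) and 4 were lower (background 3.50%). In NF-YAs MTSs, 6 were higher (background 5.44%) and 2 lower (background 3.90%). In bulk RNA, fewer cells that express a gene and less RNA per cell cannot be told apart. The median log2 fold change of the tested members was 0.10 in NF-YAl and 0.22 in NF-YAs, beside 0.011 and −0.003 over all tested genes. Both comparisons use the same 3 Empty libraries.

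In either direction, 10 of 31 members were called in NF-YAl (background 8.27%), 8 in NF-YAs (background 9.34%) and 1 between the NF-YA lines (background 4.61%). Without the fold limit, 8 were higher and 6 lower in NF-YAl (background 1714 of the 17108 genes for higher, 9.54% for lower and 19.6% for both), and 9 higher and 7 lower in NF-YAs (backgrounds 12.1% and 10.5%, together 22.6%). Between the NF-YA lines 3 were higher and 3 lower (backgrounds 4.70% and 6.25%). The libraries did not overlap those of Empty for 21 members in NF-YAl (background 42.4%) and 25 in NF-YAs (background 56.4%), and those of the NF-YA lines did not overlap each other for 12 (background 39.5%).

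**Figure D1:**
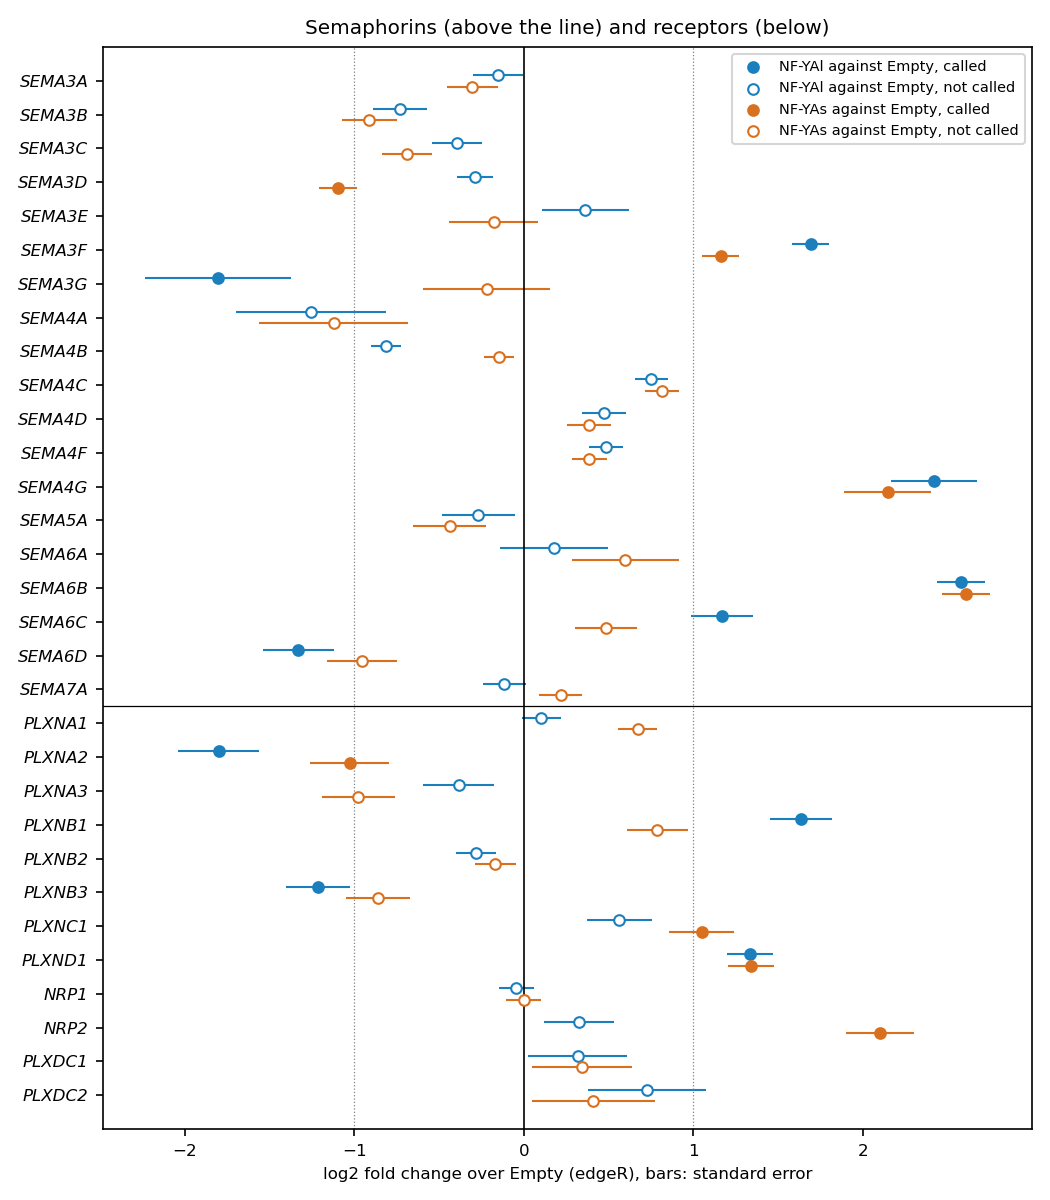
Log2 fold change over Empty of the 31 tested members in NF-YAl and NF-YAs (points, with standard errors), semaphorins above the horizontal line and receptors below, filled where called, with dotted lines at a size of 1. SEMA3F, SEMA4G, SEMA6B and PLXND1 lie above 1 in both lines, PLXNA2 below −1 in both, and NRP1 at 0.

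Ligands moved in both directions. Of 19 semaphorins tested, 4 rose and 2 fell in NF-YAl (backgrounds 4.76% and 3.50% of all genes tested). In NF-YAs, 3 rose and 1 fell (backgrounds 5.44% and 3.90%). The secreted class 3 held 1 riser in each line, SEMA3F. The membrane-bound classes 4 and 6 held the others, SEMA4G and SEMA6B in both lines and SEMA6C in NF-YAl.

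SEMA3F, a secreted ligand of NRP2 known to repel endothelial and tumor cells, was at 43.95, 45.1 and 38.5 CPM in Empty, 156, 127 and 129 CPM in NF-YAl and 98.6, 96.4 and 90.1 CPM in NF-YAs. No libraries of different lines overlapped, and the order was NF-YAl, NF-YAs, Empty. The log2 fold changes over Empty were 1.69 ± 0.11 (SE, adjusted p = 9.4e-07) and 1.16 ± 0.11 (adjusted p = 1.01e-05). With these changes SEMA3F passed SEMA4B as the ligand with the highest mean TPM in NF-YAl, 59.6 against 29.8. After division by each library's median ratio to Empty, these means were 49.6 and 24.6 TPM. SEMA7A, at 24.4, 27.5 and 57.3 TPM in NF-YAl A, B and D, ranked between SEMA3F and SEMA4B by mean TPM. In NF-YAs, SEMA4B, SEMA7A and SEMA3F had similar means of 41.7, 39.4 and 37.04 TPM. The gene lies at chr3:50192478-50226508 on the plus strand (GRCh37), and its start overlaps SEMA3F-AS1 on the other strand by 1041 bases. SEMA3F-AS1 was at 8.22, 7.59 and 7.36 CPM in Empty, 18.8, 15.8 and 12.9 CPM in NF-YAl and 9.86, 12.4 and 11.8 CPM in NF-YAs, with log2 fold changes over Empty of 1.03 ± 0.16 (adjusted p = 0.000412) and 0.56 ± 0.16 (adjusted p = 0.0171). The strand setting used in counting is not given in the sources used here, so reads from the overlap cannot be assigned to one of them with certainty.

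SEMA3B, the neighbour of SEMA3F at chr3:50304990-50314977 and also a secreted ligand of NRP2, did not share its rise. It was at 16.1, 18.6 and 22.8 CPM in Empty, 12.9, 11.8 and 10.1 CPM in NF-YAl and 9.16, 11.5 and 9.86 CPM in NF-YAs. Both NF-YA lines lay below Empty without overlap, by −0.73 ± 0.16 (adjusted p = 0.00416) and −0.91 ± 0.16 (adjusted p = 0.000924) on the log2 scale. Both values were under the fold limit of the call. Without Empty A or without NF-YAs B, SEMA3B was called lower in NF-YAs.

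SEMA3C, SEMA3E, SEMA3A and SEMA3D lie on chromosome 7 between positions 80371854 and 84816372, all on the minus strand. SEMA3D, a ligand of neuropilins, was at 57.8, 62.6 and 55.5 CPM in Empty, 54.0, 41.5 and 48.7 CPM in NF-YAl and 28.9, 26.1 and 27.3 CPM in NF-YAs. It fell in NF-YAs, by 1.10 on the log2 scale (SE 0.11, adjusted p = 1.74e-05), and its log2 fold change in NF-YAl was −0.29 ± 0.11 (adjusted p = 0.0589). SEMA3C, a ligand of NRP1, NRP2 and PLXND1, had −0.69 ± 0.15 in NF-YAs (adjusted p = 0.0033) and −0.39 ± 0.15 in NF-YAl (adjusted p = 0.0583). SEMA3A, the classical ligand of NRP1 with type A plexins, stayed between 30.7 and 47.9 CPM in all libraries, and SEMA3E between 2.62 and 6.05 CPM, neither called. SEMA3G, on chromosome 3, stayed under 1 TPM in the mean of each line and is described because it was 1 of the 4 members lower in NF-YAl. It was at 0.839, 1.23 and 1.18 CPM in Empty, 0.159, 0.204 and 0.534 CPM in NF-YAl and 1.18, 0.697 and 0.922 CPM in NF-YAs. Its fall in NF-YAl (−1.80 ± 0.43, adjusted p = 0.00696) lost the call when any 1 of 7 of the 9 libraries was left out, with an adjusted p of up to 0.0347. The 2 libraries it did not depend on were NF-YAl D and NF-YAs B.

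Class 4 semaphorins bind type B and D plexins, among others. SEMA4G, the least studied of them, was at 5.75, 6.28 and 5.71 CPM in Empty, 41.3, 36.3 and 17.5 CPM in NF-YAl and 24.1, 26.6 and 27.8 CPM in NF-YAs. All 6 NF-YA libraries lay above the Empty libraries, and D of NF-YAl was the lowest of the 6. The log2 fold changes were 2.42 ± 0.26 (adjusted p = 3.02e-05) in NF-YAl and 2.15 ± 0.26 (adjusted p = 5.78e-05) in NF-YAs. Its whole span, chr10:102729261-102745628 on the plus strand, lies opposite MRPL43, a mitochondrial ribosome gene that was not called: 22.6, 26.3 and 27.1 CPM in Empty, 33.5, 31.4 and 29.0 CPM in NF-YAl and 33.4, 29.1 and 33.2 CPM in NF-YAs. How far reads of MRPL43 entered the SEMA4G values was not tested.

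SEMA4B, the leading ligand in Empty, was at 127, 127 and 135 CPM there, 67.9, 78.5 and 74.6 CPM in NF-YAl and 112, 116 and 122 CPM in NF-YAs. NF-YAl lay well below Empty without overlap (−0.81 ± 0.09, adjusted p = 3.97e-05, under the fold limit), and the value for NF-YAs was −0.15 ± 0.09 (adjusted p = 0.215). SEMA4C, a ligand of PLXNB2, was at 28.6 to 32.1 CPM in Empty, 46.5 to 56.5 CPM in NF-YAl and 51.2 to 55.4 CPM in NF-YAs, with log2 fold changes of 0.75 ± 0.10 (adjusted p = 0.000142) and 0.81 ± 0.10 (adjusted p = 6.79e-05). SEMA4F and SEMA4D had positive values of less size, 0.48 and 0.47 in NF-YAl MTSs, and 0.39 for each in those of NF-YAs, of which SEMA4F in NF-YAl passed the adjusted p (0.00324) but not the fold limit. SEMA4A was at or under 1.89 CPM everywhere and was not called.

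Class 6 semaphorins are ligands of type A plexins and can signal in reverse through their own intracellular part. SEMA6B was at 5.24, 6.64 and 6.38 CPM in Empty, 41.5, 36.7 and 30.9 CPM in NF-YAl and 35.7, 35.4 and 40.2 CPM in NF-YAs. The 2 NF-YA lines overlapped each other and lay far above Empty. With log2 fold changes of 2.58 ± 0.14 (adjusted p = 3.48e-07) and 2.61 ± 0.14 (adjusted p = 4.13e-07), it had the highest value of all members in both lines. In NF-YAl it was within its error of SEMA4G, and without NF-YAl D the order turned (2.68 against 2.71). SEMA6C was at 5.41, 4.65 and 4.49 CPM in Empty, 12.5, 11.98 and 8.26 CPM in NF-YAl and 6.25, 6.77 and 7.33 CPM in NF-YAs, and was called in NF-YAl (1.17 ± 0.18, adjusted p = 0.000431). SEMA6D went the other way: 15.1, 26.7 and 17.7 CPM in Empty, 9.23, 7.61 and 6.90 CPM in NF-YAl and 11.6, 9.11 and 9.999 CPM in NF-YAs. It fell in NF-YAl (−1.33 ± 0.21, adjusted p = 0.000464), and in NF-YAs, where the libraries also did not overlap those of Empty, the value of −0.95 ± 0.21 (adjusted p = 0.00338) was under the fold limit. Leaving out Empty A, Empty C or NF-YAs A carried it past the limit, to −1.11, −1.03 and −1.05. In Empty, SEMA6D was thus the most abundant class 6 gene by mean TPM (4.67, against 1.79 for SEMA6B), and in both NF-YA lines SEMA6B was (13.3 and 12.3 TPM, against 2.30 and 2.65 for SEMA6D). SEMA6A remained at or under 0.71 TPM. Of class 5 and 7, SEMA5A, known to bind PLXNB3, and SEMA7A, the GPI-anchored ligand of integrin β1 and PLXNC1, were not called, with log2 fold changes of −0.27 and −0.11 in NF-YAl MTSs, against −0.44 and 0.22 in those of NF-YAs.

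**Figure D2:**
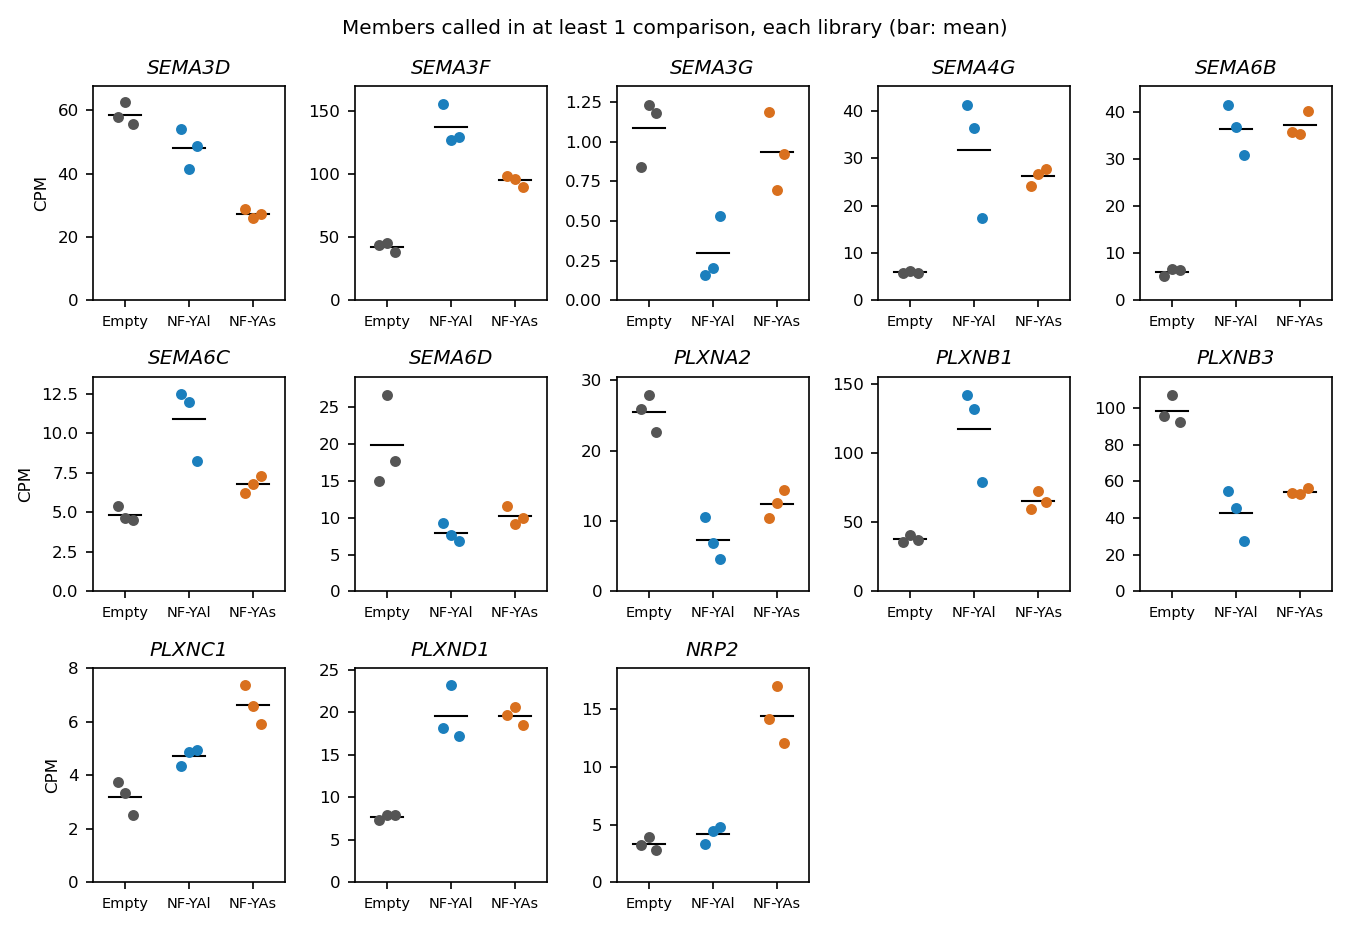
CPM of the 13 members called in at least 1 comparison, in each of the 9 libraries (points; horizontal bars are means of 3; each panel starts at 0). SEMA3F, SEMA4G, SEMA6B and PLXND1 are above Empty in all 6 NF-YA libraries, and NRP2 is high in the 3 NF-YAs libraries alone.

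Among the receptors, plexins also moved in both directions. Of 8 plexins tested, 2 rose and 2 fell in NF-YAl (backgrounds 4.76% and 3.50% of all genes tested). In NF-YAs, 2 rose and 1 fell (backgrounds 5.44% and 3.90%). PLXNB1, the receptor of SEMA4D, was at 35.8, 41.0 and 36.8 CPM in Empty, 142, 132 and 79.1 CPM in NF-YAl and 59.2, 72.2 and 64.6 CPM in NF-YAs. All 3 lines were separate. It rose in NF-YAl (1.63 ± 0.18, adjusted p = 4.38e-05), and its value in NF-YAs was 0.79 ± 0.18 (adjusted p = 0.00493). PLXNB3, the receptor known for SEMA5A, moved the opposite way, from 96.0, 107 and 92.2 CPM in Empty to 54.8, 45.5 and 27.4 CPM in NF-YAl and 53.4, 53.1 and 56.2 CPM in NF-YAs. It was called in NF-YAl (−1.21 ± 0.19, adjusted p = 0.000454) but not without NF-YAl D, where the value was −0.97, close to the −0.86 ± 0.19 of NF-YAs (adjusted p = 0.00358). PLXNB2, the most abundant plexin, stayed between 153 and 249 CPM and was not called. By mean TPM, PLXNB3 stood above PLXNB1 in Empty (18.2 against 6.03), PLXNB1 stood above PLXNB3 in NF-YAl (22.4 against 9.37), and the pair were at 11.7 and 11.2 TPM in NF-YAs.

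Type A plexins are the signalling partners of neuropilins and receptors of class 6 ligands. PLXNA2 was at 25.9, 27.9 and 22.6 CPM in Empty, 10.6, 6.87 and 4.64 CPM in NF-YAl and 10.4, 12.6 and 14.4 CPM in NF-YAs. Every NF-YA library was below every Empty library. The log2 fold changes were −1.80 ± 0.24 (adjusted p = 0.000153) in NF-YAl and −1.03 ± 0.23 (adjusted p = 0.0044) in NF-YAs, but the call in NF-YAs was lost without any 1 of the 3 Empty or 3 NF-YAs libraries, with values of −1.15 to −0.91 and adjusted p of up to 0.0265. PLXNA3, a partner of NRP2, was at 106, 106 and 104 CPM in Empty, 115, 78.5 and 50.2 CPM in NF-YAl and 53.8, 50.7 and 56.8 CPM in NF-YAs. NF-YAs was below Empty in all libraries (−0.98 ± 0.21, adjusted p = 0.00376, just under the fold limit), whereas the NF-YAl libraries were spread on both sides of Empty (−0.38 ± 0.21, adjusted p = 0.191). PLXNA1, the most abundant type A plexin, was at 153 to 183 CPM in Empty, 163 to 201 CPM in NF-YAl and 242 to 282 CPM in NF-YAs, with log2 fold changes of 0.10 ± 0.11 (adjusted p = 0.534) and 0.67 ± 0.12 (adjusted p = 0.000755).

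PLXND1, the receptor of SEMA3E known from vessel patterning, was at 7.34, 7.95 and 7.91 CPM in Empty, 18.1, 23.2 and 17.2 CPM in NF-YAl and 19.6, 20.6 and 18.5 CPM in NF-YAs. It rose to the same extent in both lines, by 1.33 ± 0.14 (adjusted p = 2.5e-05) and 1.34 ± 0.14 (adjusted p = 2.05e-05). PLXNC1, the receptor of SEMA7A, was at 3.73, 3.34 and 2.52 CPM in Empty, 4.35, 4.87 and 4.93 CPM in NF-YAl and 7.38, 6.57 and 5.90 CPM in NF-YAs. It was called in NF-YAs (1.05 ± 0.19, adjusted p = 0.00108), though not without Empty C (0.90) or NF-YAs A (0.97). PLXDC1 and PLXDC2, receptors named for a plexin-like domain, were at or under 0.42 TPM and were not called.

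The 2 neuropilins behaved differently. NRP1 was at 1717, 1999 and 1980.4 CPM in Empty, 1802, 1874 and 1851 CPM in NF-YAl and 1918, 1882 and 1891 CPM in NF-YAs. Its log2 fold changes were −0.04 ± 0.10 (adjusted p = 0.789) and −0.00 ± 0.10 (adjusted p = 0.994). NRP2 was at 3.27, 3.97 and 2.79 CPM in Empty, 3.29, 4.46 and 4.76 CPM in NF-YAl and 14.1, 16.97 and 12.1 CPM in NF-YAs. All 3 NF-YAs libraries stood above every other library (2.10 ± 0.20 over Empty, adjusted p = 1.26e-05), while the NF-YAl libraries overlapped Empty (0.32 ± 0.21, adjusted p = 0.263). The difference between the NF-YA lines was itself called (−1.78 ± 0.20 for NF-YAl against NF-YAs, adjusted p = 0.000108). Even so, NRP2 reached 3.87, 4.42 and 3.04 TPM in NF-YAs, beside 496, 438 and 418 TPM for NRP1 in the same libraries.

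Compared directly, the 2 NF-YA lines differed by call in NRP2 alone. None of the 31 tested members was higher in NF-YAl (background 1.74%) and 1 was lower (background 2.86%). At an unadjusted p under 0.05, 12 members differed, a share near that of all genes (background 36.5%), and DESeq2 called 0 higher and 1 lower. At an adjusted p under 0.01 and any size, 6 members differed (background 11.0% of genes): SEMA3F (0.53 ± 0.11), SEMA3D (0.81 ± 0.11) and PLXNB1 (0.85 ± 0.18) with higher values in NF-YAl, and SEMA4B (−0.66 ± 0.09), PLXNA1 (−0.57 ± 0.12) and NRP2 with lower ones. Without NF-YAl D, PLXNB1 was called (1.07) and SEMA3G too (−2.30), and without NF-YAl A, PLXNA2 was (−1.12).

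Ligands and receptors were then compared as sums over the members, a description with no test. On the deposited TPM scale the 20 semaphorins summed to 160 ± 20.9 TPM in Empty, 237 ± 70.6 TPM in NF-YAl and 208 ± 14.6 TPM in NF-YAs, and the 13 receptors to 529 ± 45.8, 645 ± 202 and 572 ± 45.4 (SD, n = 3). Without NF-YAl D the folds over Empty in NF-YAl were 1.23 for semaphorins and 1.0015 for receptors, against 1.48 and 1.22 with it. After each library's TPM was divided by its median ratio to Empty, a step added after the data were seen, the semaphorins summed to 162, 158 and 161 TPM in Empty, 202, 189 and 202 TPM in NF-YAl and 191, 190.1 and 193 TPM in NF-YAs. The NF-YA libraries were all above the Empty libraries, 1.23-fold and 1.19-fold on average. SEMA3F made the largest single gain, from a scaled mean of 14.7 TPM with the empty vector to 49.6 (NF-YAl) and 33.9 (NF-YAs). SEMA4B, among others, went the other way, from 41.6 to 24.6 (NF-YAl) and 38.3 (NF-YAs). The higher sum is therefore not a rise shared by all ligands. The receptors summed to 507, 553 and 533 TPM in Empty, 524, 526 and 558 TPM in NF-YAl and 528, 526 and 521 TPM in NF-YAs. Their libraries overlapped, with folds of 1.01 and 0.99. NRP1 set most of this sum. The receptors without NRP1 also overlapped, at 102 to 115 TPM in Empty, 90.6 to 118 in NF-YAl and 106 to 116 in NF-YAs.

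The median log2 fold change gave another order. Over the 19 tested ligands it was −0.11 in NF-YAl and −0.15 in NF-YAs, and over the 12 tested receptors 0.21 and 0.38. The higher ligand sum thus came with a slightly negative ligand median. Of 19 textbook ligand and receptor pairs, which share members with each other, none had both partners called in NF-YAl, 5 had the ligand alone, 5 the receptor alone and 9 neither. In NF-YAs, SEMA3F with NRP2 was the single pair in which both rose, 1 pair had the ligand alone, 7 the receptor alone and 10 neither. The 2 pairs with PLXNA4 count under neither in both lines, since it was not tested. SEMA4D and PLXNB1 had 0.47 and 1.63 in NF-YAl, and SEMA6A and PLXNA2 0.18 and −1.80.

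Transcript shares were examined for the 14 members with at least 2 annotated transcripts and a mean of at least 1 TPM. For each, the transcript with the largest difference in mean share between 2 lines was taken, so its size is a description, and a lack of overlap is favoured by that choice. An exact permutation test of 3 against 3 libraries cannot give a two-sided p under 0.1.

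NRP1 had 7 transcripts and the deepest counts. Its main transcript of 5880 bases, which encodes the full-length membrane receptor, took 57.6%, 55.0% and 56.6% of the gene's TPM in Empty, compared with 62.1%, 60.3% and 57.7% in NF-YAl libraries and 69.8%, 66.5% and 66.2% in those of NF-YAs. The NF-YAs libraries were above all others, by 11.1 percentage points over Empty (two-sided exact p = 0.1). The 2478-base transcript, a short form of the kind that ends before the transmembrane part and encodes a secreted protein, was named after its values were seen. It took 14.6%, 16.8% and 14.1% in Empty, compared with 14.0%, 16.7% and 18.3% in NF-YAl libraries and 9.05%, 9.89% and 10.9% in those of NF-YAs. In counts it was at 115 to 157 CPM in Empty and 75.4 to 90.7 CPM in NF-YAs, without overlap.

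PLXNC1 was counted mostly on a non-coding transcript of 3890 bases, which took 91.5% to 98.6% of the gene's TPM in Empty and 56.5% to 83.7% in NF-YAs. The coding transcript of 7346 bases was at 0.561, 0.323 and 0.0653 CPM in Empty, 1.02, 0.610 and 1.45 CPM in NF-YAl and 4.41, 1.79 and 1.66 CPM in NF-YAs. Its 3 lines did not overlap, and Empty C held 1.66 expected counts, under the floor of 3. The non-coding transcript overlapped between the lines, at 2.46 to 3.16 CPM in Empty and 2.97 to 4.77 CPM in NF-YAs. Most of the gene's added CPM in NF-YAs was counted on the coding form, at a low level.

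PLXNB1 used its 7143-base transcript for 70.6% to 82.2% of TPM in Empty, 81.7% to 83.4% of TPM in NF-YAl and 84.8% to 93.0% in NF-YAs. In SEMA6D the 6099-base form took 28.7% to 34.3% in Empty and 50.8% to 75.0% in NF-YAs. In SEMA3B the 2807-base form took 36.7% to 63.7% in Empty and 0 to 33.6% in NF-YAl. The last pair of genes have 7 transcripts each and few reads per transcript, and the spread within a line was up to 17.1 percentage points (SD), so these shares are less certain than those of NRP1.

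Since NF-Y binds CCAAT boxes, the 250 bases before each annotated start were searched for CCAAT and its reverse complement ATTGG, that is, on both strands. RefSeq promoters (GRCh38.p14) matched 28 of the 33 members by symbol. A box was found in 10 of these 28 genes, 35.7%, and in 10102 of all 27305 genes in the promoter table. Of the 12 called members with a promoter, 5 held a box: SEMA3F, SEMA6C and PLXNB1, which rose, and SEMA3G and PLXNB3, which fell. These 5 windows are shown because they join the motif to a called gene. Each runs 5′ to 3′ on the gene's strand up to the base before the start, with the box in capitals.
SEMA3F: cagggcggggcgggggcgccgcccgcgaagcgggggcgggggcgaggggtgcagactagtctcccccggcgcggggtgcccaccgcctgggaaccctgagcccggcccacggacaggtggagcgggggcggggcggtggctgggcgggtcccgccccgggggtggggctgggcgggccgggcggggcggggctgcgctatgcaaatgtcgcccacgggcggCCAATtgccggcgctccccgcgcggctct
SEMA6C: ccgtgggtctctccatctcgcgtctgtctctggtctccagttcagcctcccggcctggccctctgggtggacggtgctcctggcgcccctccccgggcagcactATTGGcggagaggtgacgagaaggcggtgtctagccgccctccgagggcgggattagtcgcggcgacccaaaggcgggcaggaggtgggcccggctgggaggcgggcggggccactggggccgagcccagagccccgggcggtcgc
PLXNB1: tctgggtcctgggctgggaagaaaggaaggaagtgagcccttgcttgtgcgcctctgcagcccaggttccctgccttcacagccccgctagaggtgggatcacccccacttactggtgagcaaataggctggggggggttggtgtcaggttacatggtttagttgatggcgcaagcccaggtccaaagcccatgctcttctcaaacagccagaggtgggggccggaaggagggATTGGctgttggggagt
SEMA3G: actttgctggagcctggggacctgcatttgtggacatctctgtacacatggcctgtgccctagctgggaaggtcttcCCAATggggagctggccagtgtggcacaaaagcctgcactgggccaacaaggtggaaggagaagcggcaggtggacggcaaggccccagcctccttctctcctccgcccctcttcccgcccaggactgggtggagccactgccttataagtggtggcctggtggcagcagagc
PLXNB3: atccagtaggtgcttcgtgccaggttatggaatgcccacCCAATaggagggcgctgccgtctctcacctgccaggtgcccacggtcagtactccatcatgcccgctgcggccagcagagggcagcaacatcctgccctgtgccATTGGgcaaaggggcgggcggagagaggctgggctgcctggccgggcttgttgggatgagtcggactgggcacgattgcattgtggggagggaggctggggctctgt

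The SEMA3F window is chr3:50154808-50155057 on the plus strand, and its box begins 29 bases before the start of the first of 3 annotated starts. The SEMA6C window is chr1:151146632-151146881 on the minus strand, with the reverse box 146 bases before the start. In PLXNB1 (chr3:48430087-48430336, minus strand) the reverse box lies 17 bases before one of 2 starts. SEMA3G (chr3:52445104-52445353, minus strand) has a box 173 bases before its start, and PLXNB3 (chrX:153763999-153764248, plus strand) has 1 box on each strand, 211 and 107 bases before. The windows of NRP2, PLXND1, SEMA4G, PLXNA2, SEMA3D, SEMA6D and PLXNC1 hold neither word. SEMA6B, NRP1, SEMA3A, SEMA6A and PLXDC1 had no entry in the table. The motif was thus in 3 of 7 called members that rose and 2 of 5 that fell, and a match to these letters is no measure of binding.

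The proteins that work with this system were taken as a list of 61 genes, of which 57 were tested: co-receptors, other neuropilin ligands, processing proteases and cytoplasmic effectors. This list too was chosen with earlier results of these data known. In NF-YAl 4 rose and 0 fell by edgeR, and in NF-YAs 5 rose and 2 fell, against the same background shares as for the members. At an unadjusted p under 0.05, 25 and 29 of the 57 differed, beside 42.2% and 45.0% of all genes tested, and DESeq2 also called 0 lower in NF-YAl. The list's median log2 fold change was 0.05 and 0.14.

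The VEGF receptors share neuropilins with class 3 semaphorins, and had the largest changes among the partners that reached 5 CPM. KDR, the main signalling receptor of VEGFA, was at 28.2, 31.3 and 32.1 CPM in Empty, 710.5, 445 and 318 CPM in NF-YAl and 242, 182 and 279 CPM in NF-YAs. The lines were separate, with rises of 4.01 ± 0.27 (adjusted p = 1.39e-06) and 2.94 ± 0.26 (adjusted p = 6.64e-06) on the log2 scale. KDR was also the 1 partner called between the NF-YA lines (1.07 ± 0.24, adjusted p = 0.00754), a call lost when any library but NF-YAl D was left out (log2 fold change 0.71 to 1.22, adjusted p up to 0.0413). FLT1, which binds VEGFA, VEGFB and PGF, was at 4.32, 2.74 and 3.78 CPM in Empty, 9.92, 38.0 and 59.2 CPM in NF-YAl and 53.5, 57.8 and 43.7 CPM in NF-YAs. Its NF-YAl libraries were widely spread but all above Empty (3.31 ± 0.49, adjusted p = 0.000311, and 3.84 ± 0.49, adjusted p = 9.82e-05). Of the endothelial markers, CDH5 and TEK were at or under 0.16 TPM in all libraries and too low to test. VWF was at 0.75 to 1.06 TPM in Empty, 0.11 TPM in each NF-YAl library and 0.86 to 0.93 TPM in NF-YAs, and was called lower in NF-YAl (−3.23 ± 0.23, adjusted p = 1.92e-06). PECAM1 was at 1.43 to 1.72 TPM in Empty, 1.19 to 2.74 TPM in NF-YAl and 0.46 to 0.62 TPM in NF-YAs, and was called lower in NF-YAs (−1.73 ± 0.20, adjusted p = 4.8e-05).

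Among the effectors, MRAS, a small GTPase of the R-Ras family on which plexins act, rose from 1.01, 1.07 and 1.81 CPM in Empty to 9.76, 9.98 and 7.56 CPM in NF-YAl and 7.54, 7.71 and 8.06 CPM in NF-YAs (2.80 ± 0.23, adjusted p = 4.97e-06, and 2.58 ± 0.23, adjusted p = 7.62e-06). RND3, a small GTP-binding protein that binds plexins, was at 142, 110.5 and 162 CPM in Empty, 104, 69.2 and 135 CPM in NF-YAl and 79.5, 55.8 and 66.1 CPM in NF-YAs. It fell in NF-YAs (−1.04 ± 0.22, adjusted p = 0.0029), but not without Empty A, Empty C, NF-YAs B or NF-YAs C, where the count of falling partners was 1. MET, the receptor of hepatocyte growth factor that associates with PLXNB1, was at 718, 782 and 788 CPM in Empty, 309, 437 and 527 CPM in NF-YAl and 393, 328 and 338 CPM in NF-YAs. All NF-YA libraries were below Empty, with −1.11 ± 0.16 in NF-YAs (called, adjusted p = 0.000251) and −0.85 ± 0.16 in NF-YAl (adjusted p = 0.0018), where MET was called without NF-YAl D (−1.03). The protease PCSK5 in both lines and the VEGF relative PGF in NF-YAs were the other calls, at means under 5 CPM. The PGF call was lost without Empty B, Empty C, NF-YAs A, NF-YAs B or NF-YAs C, each of which left 4 partners higher in NF-YAs. MMP14, a protease named after its values were seen, had 0.93 ± 0.13 in NF-YAl (adjusted p = 0.000208) and was also called there without NF-YAl D or Empty C, which made 5 partners higher.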

How the data were processed

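RNA from MTSs of PC3 Empty, NF-YAl and NF-YAs cells was sequenced as stranded total RNA, 3 libraries per line. The authors aligned reads with Bowtie2 within RSEM to RefSeq transcripts of hg19, and deposited expected counts, TPM and the percent of a gene's TPM per transcript. The strand setting of the counting is not given in the sources used here. Expected counts were rounded. In edgeR 4.0.16 (R 4.3.3) the 3 lines were fitted together by the quasi-likelihood method after filterByExpr and TMM scaling. A call needed an adjusted p under 0.01 (Benjamini-Hochberg over 17108 genes) and a log2 fold change above 1 in size; standard errors are the log2 fold change over the root of F. The fit was tested on simulated data. Members called in at least 1 comparison with a mean of at least 1 TPM in a line were described in every library, and up to 3 called partners per comparison and direction with at least 5 CPM and no overlap were named; PCSK5, PGF and SEMA3G fall outside this rule. Two-sided exact permutation tests (scipy 1.17.1) were used for transcript shares. Members and lists were chosen with earlier results of these data known. Alternatives used DESeq2 1.42.0, limma 3.58.1, other filters and scalings, and each library left out. Positions are from GENCODE on GRCh37, promoters from RefSeq. With 18076979 to 27163976 counts per library, genes near 1 CPM rest on few reads. The libraries are separate cultures of 1 line, so p-values measure the spread between cultures.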

Additional observations from a re-analysis of the deposited data

Results flagged for a closer look

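The members below differed in level between the NF-YAl and NF-YAs lines by a direct test. It was edgeR's quasi-likelihood test, at an adjusted p under 0.01 over all genes and any size of change. NFYA itself was at a mean of 341 CPM in NF-YAl and 261 CPM in NF-YAs, without overlap. Isoform, amount of NFYA RNA and transduced line thus cannot be told apart. NRP2 had a log2 fold change of −1.78 (NF-YAl against NF-YAs, adjusted p = 0.000108), SEMA4B −0.66 (adjusted p = 0.000385) and PLXNA1 −0.57 (adjusted p = 0.00444). SEMA3D had 0.81 (adjusted p = 0.000425), PLXNB1 0.85 (adjusted p = 0.00562) and SEMA3F 0.53 (adjusted p = 0.00398). In NRP2, SEMA3D, SEMA4B, SEMA3F, PLXNA1 and PLXNB1 the 3 libraries of one NF-YA line did not overlap those of the other. Leaving out 1 library raised the adjusted p to as much as 0.030 for PLXNB1, 0.0278 for SEMA3F and 0.0282 for PLXNA1, past the threshold, while NRP2, SEMA3D and SEMA4B stayed under it. Over all 18 alternatives, by edgeR, DESeq2 or limma, NRP2 alone stayed under it, with at most 0.00089. The highest adjusted p was 0.332 for SEMA4B, 0.0951 for SEMA3D, 0.444 for PLXNA1, 0.216 for SEMA3F and 0.0405 for PLXNB1. With 3 libraries in a line, no library was tested as an outlier.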

How the results depend on the processing

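Over 18 alternatives, the rises of SEMA3F, SEMA4G, SEMA6B and PLXND1 in both lines, of SEMA6C and PLXNB1 in NF-YAl and of NRP2 in NF-YAs stayed called, as did NRP2 between the NF-YA lines. Counts of calls were less stable. With at least 10 counts in every library, partners higher in NF-YAs numbered 3, and with only the 2 lines compared, partners higher in NF-YAl than in NF-YAs numbered 0. With limma on log2(TPM + 1), members lower numbered 0 in NF-YAl and 0 in NF-YAs, partners in NF-YAs 3 higher and 0 lower, and partners higher in NF-YAl than in NF-YAs 0; the TPM scale of NF-YAl D enters that fit. At an adjusted p under 0.05, 2 members were lower in NF-YAl than in NF-YAs, a threshold at which the share of all genes was not taken. With no limit on fold change, partners numbered 8 higher and 7 lower in NF-YAl, 12 higher and 5 lower in NF-YAs and 2 lower in NF-YAl than in NF-YAs, and members 7 lower in NF-YAs, and 3 higher and 3 lower in NF-YAl than in NF-YAs. Leaving out 1 library gave 1 to 3 members lower in NF-YAs, 0 to 1 higher and 1 to 2 lower in NF-YAl than in NF-YAs, and partners numbering 0 to 1 lower in NF-YAl, 1 to 2 lower and 4 to 5 higher in NF-YAs and 0 to 1 higher in NF-YAl than in NF-YAs.

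Whether the letters pair the libraries is not clear. Residuals of same-letter libraries correlated at −0.07 to 0.34 over 7 pairs, with a mean of 0.13. Those of different-letter libraries correlated at −0.29 to 0.26 over 20 pairs, with a mean of −0.045, so the ranges overlapped. With the replicate block, members higher in NF-YAl than in NF-YAs numbered 1 (PLXNB1) and lower 2 (with SEMA3G), partners lower in NF-YAl 1 (MET) and higher 5 (with MMP14), and PLXNB3 was not called in NF-YAl.

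The semaphorin sum in NF-YAs over Empty was 1.30-fold in TPM, 1.09-fold in CPM, 1.19-fold after scaling to the median gene, and 1.25-fold to 1.40-fold without 1 library. The receptor sum in NF-YAs was 1.08-fold and, scaled, 0.99-fold. The 2 steps chosen after seeing the data were this scaling and leaving out NRP1 from the receptors (1.15-fold in NF-YAl, 1.11-fold in NF-YAs). By expected counts, the NRP1 long-form difference was 8.86 percentage points. Within 100 bases of the start, 6 of 28 members (21.4%) and 2 of 12 called members (16.7%) held a box. The share of all genes in the promoter table was 21.6%.

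Signs turned only for values near 0. PLXND1 between the NF-YA lines became 0.0035 without a filter, 0.0026 with at least 10 counts, 0.060 with the block and 0.092 by limma, and ranged from −0.15 to 0.083 without 1 library. SEMA6B there became 0.13 with the block and 0.088 by limma, and ranged from −0.13 to 0.076 without 1 library. By limma SEMA3D in NF-YAl was 0.012 and SEMA4B in NF-YAs 0.010. PLXNA1 in NF-YAl ranged from −0.0031 (without NF-YAl B) to 0.193. The causes were not tested.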
